A study of Mus musculus with 12 samples.

Results

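A set of 38 genes was followed whose products import glucose and amino acids, break glucose down through glycolysis, feed the pentose phosphate pathway, or sense oxygen and take up iron. The members were chosen by gene symbol, and their values were read from probe sets annotated to that symbol alone, with the highest mean probe set used for each gene. Of the 38 listed genes, 34 had such a probe set, out of 19937 genes of the series, and 31 passed a filter on low values, out of 11240 genes tested. Gapdh was named by 11 probe sets that all name other genes too, and no probe set named Gpi1, Eno1 or G6pdx, so these 4 genes were not analysed here. Hk2, Pfkm and Pfkfb4 lay near or below the median of each array, at 5.50 to 6.47, and were not tested.

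Glycolysis splits glucose into pyruvate in the cytosol. The enzymes up to triosephosphate isomerase spend ATP and make triose phosphates, and those that follow return ATP and end at pyruvate, which becomes lactate or enters the mitochondrion. The pentose phosphate pathway branches off after the hexokinase step and yields NADPH and ribose phosphate. In T cells, activation is known to raise glucose and amino acid uptake, and in T follicular helper (Tfh) cells, which help B cells in germinal centres, the repressor BCL6 has been reported to restrain glycolytic genes.

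RNA came from CD4+ T cells of Peyer's patches (lymphoid tissue of the gut wall) of mice that carry a BAC transgene in which enhanced GFP reports IL-21, and it was hybridised to 12 Affymetrix mouse gene arrays, 3 per group. GFP+ Tfh were CXCR5+PD1+ cells with the reporter, GFP- Tfh were CXCR5+PD1+ cells without it, and the 2 other groups were GFP- cells sorted as CXCR5+PD1- or CXCR5-PD1-. All groups carried the transgene and were gated as negative for MHC class II and Epcam. No treatment or time is given, and ages and the number of animals behind a sample are not stated, so the p-values cover only the spread among these samples. Values are log2 expression as deposited, differences are log2 differences ± SE, and a gene is said to rise or fall where its limma p, adjusted over the 11240 genes, was under 0.05. In sorted bulk RNA, more cells of a type and more RNA per cell cannot be told apart, and levels of different probe sets are not set against each other.

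The groups follow the titles, since the characteristics of the GFP+ arrays give CXCR5- and PD1- where their titles give +. Mean Cxcr5 was 8.95 for GFP+ Tfh and 8.21 for GFP- Tfh, beside 5.61 for the CXCR5+PD1- gate and 5.71 for CXCR5-PD1-. The CXCR5+PD1- gate thus showed no Cxcr5 transcript level above that of the CXCR5-PD1- gate, and both lay below the array medians of 6.34 to 6.45. Mean Il21 was 10.60 for GFP+ Tfh and 9.96 for GFP- Tfh, beside 6.50 for CXCR5+PD1- and 6.64 for CXCR5-PD1-. All GFP+ Tfh arrays lay above all GFP- Tfh arrays for Il21, by 0.63 ± 0.56 on average (limma adjusted p = 0.824). The GFP- Tfh pool therefore also held Il21 transcript, and bulk values cannot show how many of its cells did. The cell type label of all 12 samples is T follicular helper, PD1- groups included. The median of 8 Tfh markers, however, lay 2.80 to 3.40 above the array median on Tfh arrays and 0.82 to 1.45 above it on PD1- arrays. These markers include Cxcr5 and Pdcd1, the genes of the sorted proteins, and Il21, the gene that GFP reports, so part of this gap follows from the gates. All 6 T cell markers with a probe set were tested, and 2 of them rose in both Tfh groups over both PD1- groups, Cd4 by 0.53 ± 0.10 (limma adjusted p = 0.00457) and Cd3g by 0.32 ± 0.09 (limma adjusted p = 0.047), while of the genes behind the negative gates the filter removed Epcam, H2-Aa, H2-Ab1 and Cd74 and kept the class II gene H2-Eb1, at group means of 6.62 to 6.71. All GFP+ Tfh arrays lay above all GFP- Tfh arrays for H2-Ab1 (means 6.49 and 6.17) and Cd74 (6.10 and 5.67), but not for H2-Aa and H2-Eb1. Relative to the array median, the median of H2-Aa, H2-Ab1, H2-Eb1 and Cd74 was -0.40 to 0.15 in GFP+ Tfh, highest on replicate 3. It was -0.58 to -0.44 in GFP- Tfh, -0.53 to -0.38 in CXCR5+PD1- and -0.59 to -0.04 in CXCR5-PD1- cells. The GFP+ Tfh arrays stood apart in their spread, since their rms distance from the group mean was 0.29 to 0.41, against 0.16 to 0.20 on the 9 other arrays. Replicate 3 of each group had Xist at 10.65 to 11.25 and the Y-linked Eif2s3y at 3.70 to 4.04, whereas replicates 1 and 2 had Xist at 4.88 to 5.49 and Eif2s3y at 8.59 to 9.30. Replicate 3 was therefore female and replicates 1 and 2 male, so at least some of the spread within a group lies between animals, while that between replicates 1 and 2 may be technical. Member counts with this split as a block are given for each comparison in which it changed a count.

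Both Tfh groups were first compared with both PD1- groups, 6 arrays against 6. Hif1a, which encodes the oxygen-regulated subunit of the transcription factor HIF-1, rose 2.49-fold, and 6 glycolytic genes rose with it, from phosphofructokinase to phosphoglycerate kinase: Pfkp, Pfkfb3, Aldoa, Aldoc, Tpi1 and Pgk1. The amino acid transporter genes Slc38a1 and Slc3a2 also rose. Slc38a2 and Slc7a5, which encode transporters of the same kind, fell, as did the glucose transporter gene Slc2a3. In all, 9 of the 31 tested members rose and 3 fell (29% and 9.68%), where 5.05% of all genes tested rose and 5.33% fell. The median difference of the tested members was 0.05, beside -0.02 for all genes tested. The shares describe members that passed the filter and were listed with results of these arrays known.

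**Figure D1:**
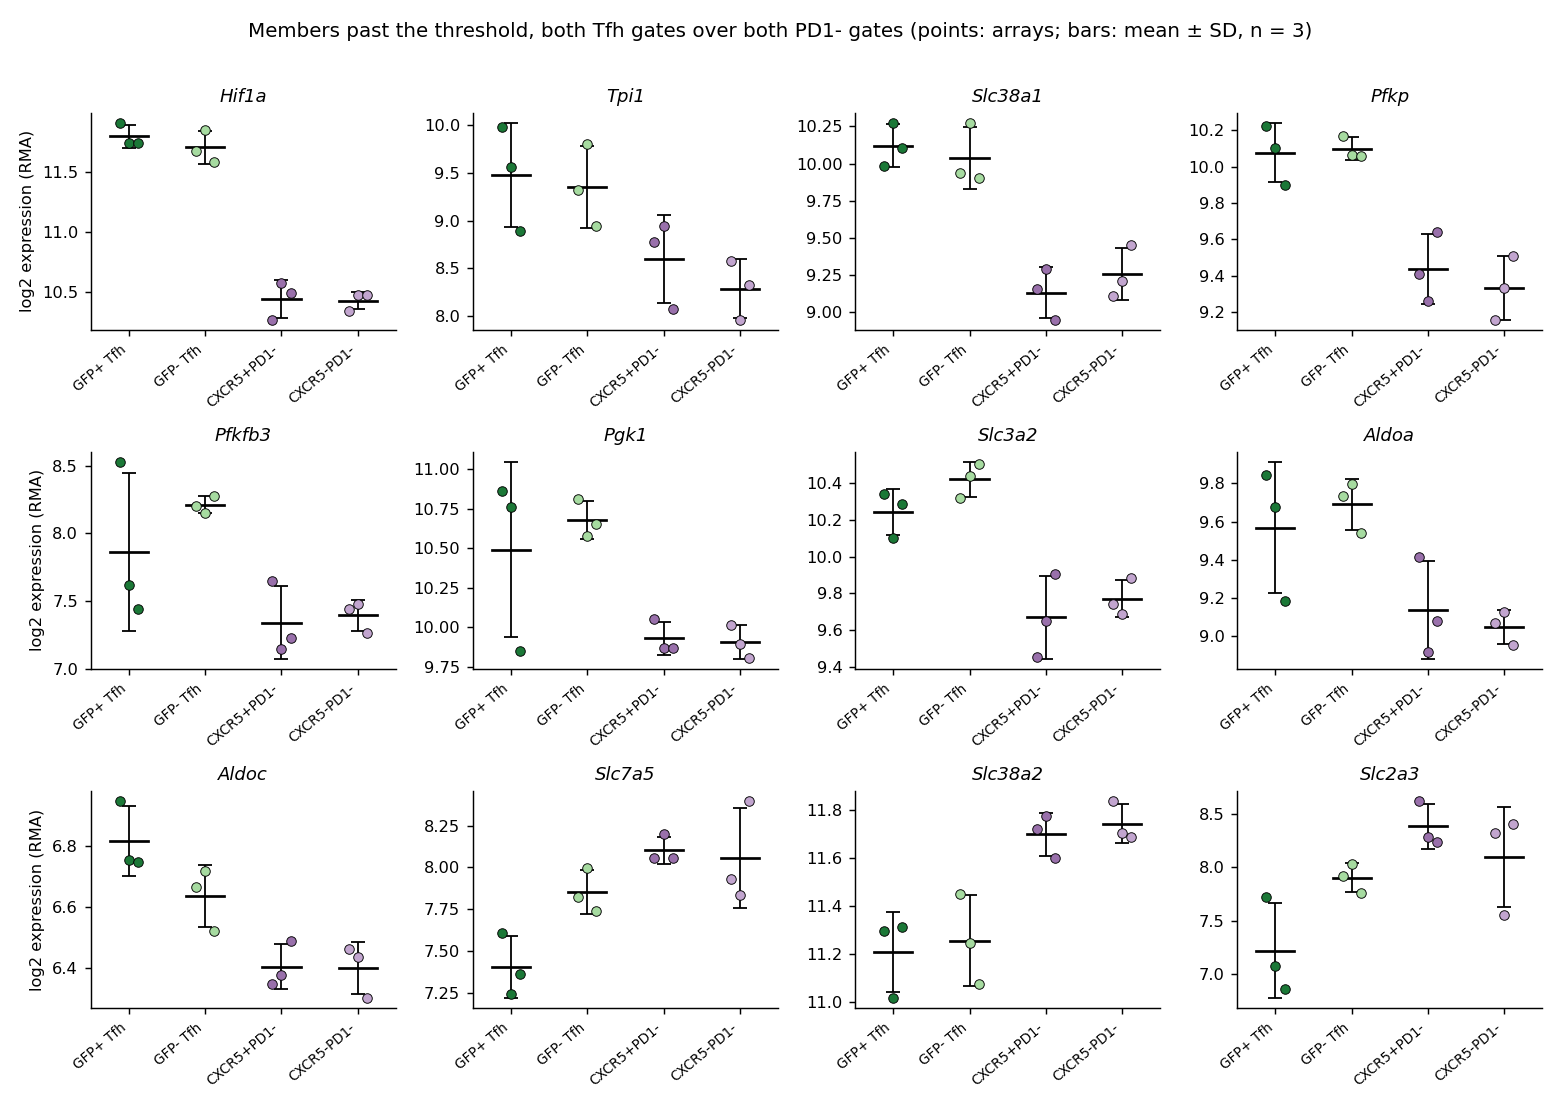
Log2 expression on each array of the 12 members that passed in both Tfh groups over both PD1- groups, with groups from left to right GFP+ Tfh, GFP- Tfh, CXCR5+PD1- and CXCR5-PD1- and each panel on its own scale; points are arrays and bars are the mean ± SD (n = 3). The 6 Tfh arrays of Hif1a lie at 11.59 to 11.91, above the PD1- arrays at 10.27 to 10.57, while Slc38a2 lies lower in all 6 Tfh arrays.

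Glucose enters T cells mainly through facilitative carriers of the SLC2A family. Slc2a3 encodes GLUT3 and stood at 7.72, 7.08 and 6.87 in GFP+ Tfh, 7.92, 8.03 and 7.76 in GFP- Tfh, 8.62, 8.29 and 8.24 in CXCR5+PD1- cells and 8.32, 7.56 and 8.40 in CXCR5-PD1- cells. Its lowest values were on GFP+ Tfh replicates 2 and 3, and the GFP- Tfh arrays overlapped the PD1- arrays. Slc2a3 fell by 0.67 ± 0.18 in both Tfh groups over both PD1- groups (limma adjusted p = 0.0316). Without all 3 GFP+ Tfh arrays, a repeat chosen after seeing the data, the difference was -0.33 (limma adjusted p = 0.333), and Slc2a3 also lost the call without any single array other than GFP+ Tfh replicates 1 and 3 and CXCR5-PD1- replicate 2. Slc2a1, which encodes GLUT1, the carrier best known in activated T cells, lay between 7.63 and 8.89 on the 12 arrays and differed by 0.02 ± 0.19, with its highest and lowest values both in GFP+ Tfh.

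The next members commit sugar phosphates to glycolysis and split them. Pfkp encodes the platelet-type phosphofructokinase, which makes fructose 1,6-bisphosphate. It stood at 10.22, 10.10 and 9.90 in GFP+ Tfh, 10.17, 10.06 and 10.06 in GFP- Tfh, 9.41, 9.26 and 9.64 in CXCR5+PD1- cells and 9.16, 9.33 and 9.51 in CXCR5-PD1- cells. All 6 Tfh arrays lay above all 6 PD1- arrays, and Pfkp rose by 0.70 ± 0.10, or 1.63-fold (limma adjusted p = 0.000699). Pfkl, the liver-type phosphofructokinase gene, had 6.64, 7.11 and 6.72 in GFP+ Tfh, 7.07, 7.52 and 7.00 in GFP- Tfh, 6.67, 6.53 and 6.64 in CXCR5+PD1- cells and 6.61, 7.03 and 7.15 in CXCR5-PD1- cells. The Tfh and PD1- arrays of Pfkl overlapped, although all GFP- Tfh arrays lay above all CXCR5+PD1- arrays, and it did not pass (0.24 ± 0.13).

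Aldolases cut the 6-carbon sugar into triose phosphates. Aldoa had 9.84, 9.68 and 9.18 in GFP+ Tfh, 9.73, 9.80 and 9.54 in GFP- Tfh, 9.42, 8.92 and 9.08 in CXCR5+PD1- cells and 9.07, 9.13 and 8.95 in CXCR5-PD1- cells, so GFP+ Tfh replicate 3 fell below the highest PD1- array. Aldoa rose by 0.54 ± 0.13 (limma adjusted p = 0.0184), and lost the call without GFP- Tfh replicate 2 or CXCR5+PD1- replicate 2 (adjusted p at most 0.0521). Aldoc, the aldolase best known from brain, had 6.95, 6.76 and 6.75 in GFP+ Tfh, 6.67, 6.72 and 6.52 in GFP- Tfh, 6.35, 6.38 and 6.49 in CXCR5+PD1- cells and 6.46, 6.44 and 6.30 in CXCR5-PD1- cells. Its Tfh and PD1- arrays did not overlap. Aldoc rose by 0.32 ± 0.08 (limma adjusted p = 0.0199), on values close to the array medians. It lost the call in 7 of 23 repeats, among them those without GFP- Tfh replicate 1 or 2, CXCR5+PD1- replicate 1 or 2 or CXCR5-PD1- replicate 3 (adjusted p at most 0.141).

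Tpi1 encodes triosephosphate isomerase, which interconverts the aldolase products. It stood at 9.98, 9.56 and 8.89 in GFP+ Tfh, 9.32, 9.80 and 8.94 in GFP- Tfh, 8.77, 8.95 and 8.08 in CXCR5+PD1- cells and 8.57, 7.96 and 8.32 in CXCR5-PD1- cells. Replicate 3 was the lowest of its group in GFP+ Tfh, GFP- Tfh and CXCR5+PD1- cells, and the Tfh and PD1- arrays met at 8.89 to 8.95. Tpi1 rose by 0.97 ± 0.22, or 1.96-fold (limma adjusted p = 0.0152), and kept the call in every repeat of this comparison. Pfkfb3 encodes the kinase that makes fructose 2,6-bisphosphate, an activator of phosphofructokinase. It had 8.53, 7.62 and 7.44 in GFP+ Tfh, 8.20, 8.15 and 8.28 in GFP- Tfh, 7.65, 7.15 and 7.23 in CXCR5+PD1- cells and 7.44, 7.48 and 7.26 in CXCR5-PD1- cells. The GFP- Tfh arrays lay close together above all PD1- arrays, whereas GFP+ Tfh replicates 2 and 3 lay within the PD1- range. Pfkfb3 rose by 0.67 ± 0.17 (limma adjusted p = 0.026) and lost the call without any 1 of 7 single arrays (GFP- Tfh replicates 1, 2 and 3, CXCR5+PD1- replicates 2 and 3 and CXCR5-PD1- replicates 1 and 3; adjusted p at most 0.0828).

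Of the steps that return ATP, Pgk1 was the member that rose. It encodes phosphoglycerate kinase, the first enzyme of glycolysis to make ATP. Pgk1 stood at 10.86, 10.76 and 9.85 in GFP+ Tfh, 10.81, 10.58 and 10.65 in GFP- Tfh, 10.05, 9.87 and 9.87 in CXCR5+PD1- cells and 10.02, 9.89 and 9.81 in CXCR5-PD1- cells. All Tfh arrays but GFP+ replicate 3 lay above the PD1- arrays. The difference was 0.67 ± 0.15, or 1.59-fold (limma adjusted p = 0.0162), in every repeat past the threshold. Pkm, the gene of the pyruvate kinase of lymphocytes, differed by 0.35 ± 0.13 without passing (limma adjusted p = 0.141), and its second probe set, whose neighbours in the identifier order lie on another chromosome, differed by 0.30 ± 0.10 (limma adjusted p = 0.0971).

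The remaining members of this stretch did not pass. Eno3, the muscle enolase gene, had 6.55, 7.31 and 6.55 in GFP+ Tfh, 7.29, 6.85 and 7.25 in GFP- Tfh, 6.95, 7.77 and 7.42 in CXCR5+PD1- cells and 7.40, 6.99 and 7.41 in CXCR5-PD1- cells, and differed by -0.36 ± 0.18. Pgam1, which encodes phosphoglycerate mutase, differed by 0.05 ± 0.10, but its one probe set has neighbours on chromosome 7 while the gene lies on chromosome 19.

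**Figure D2:**
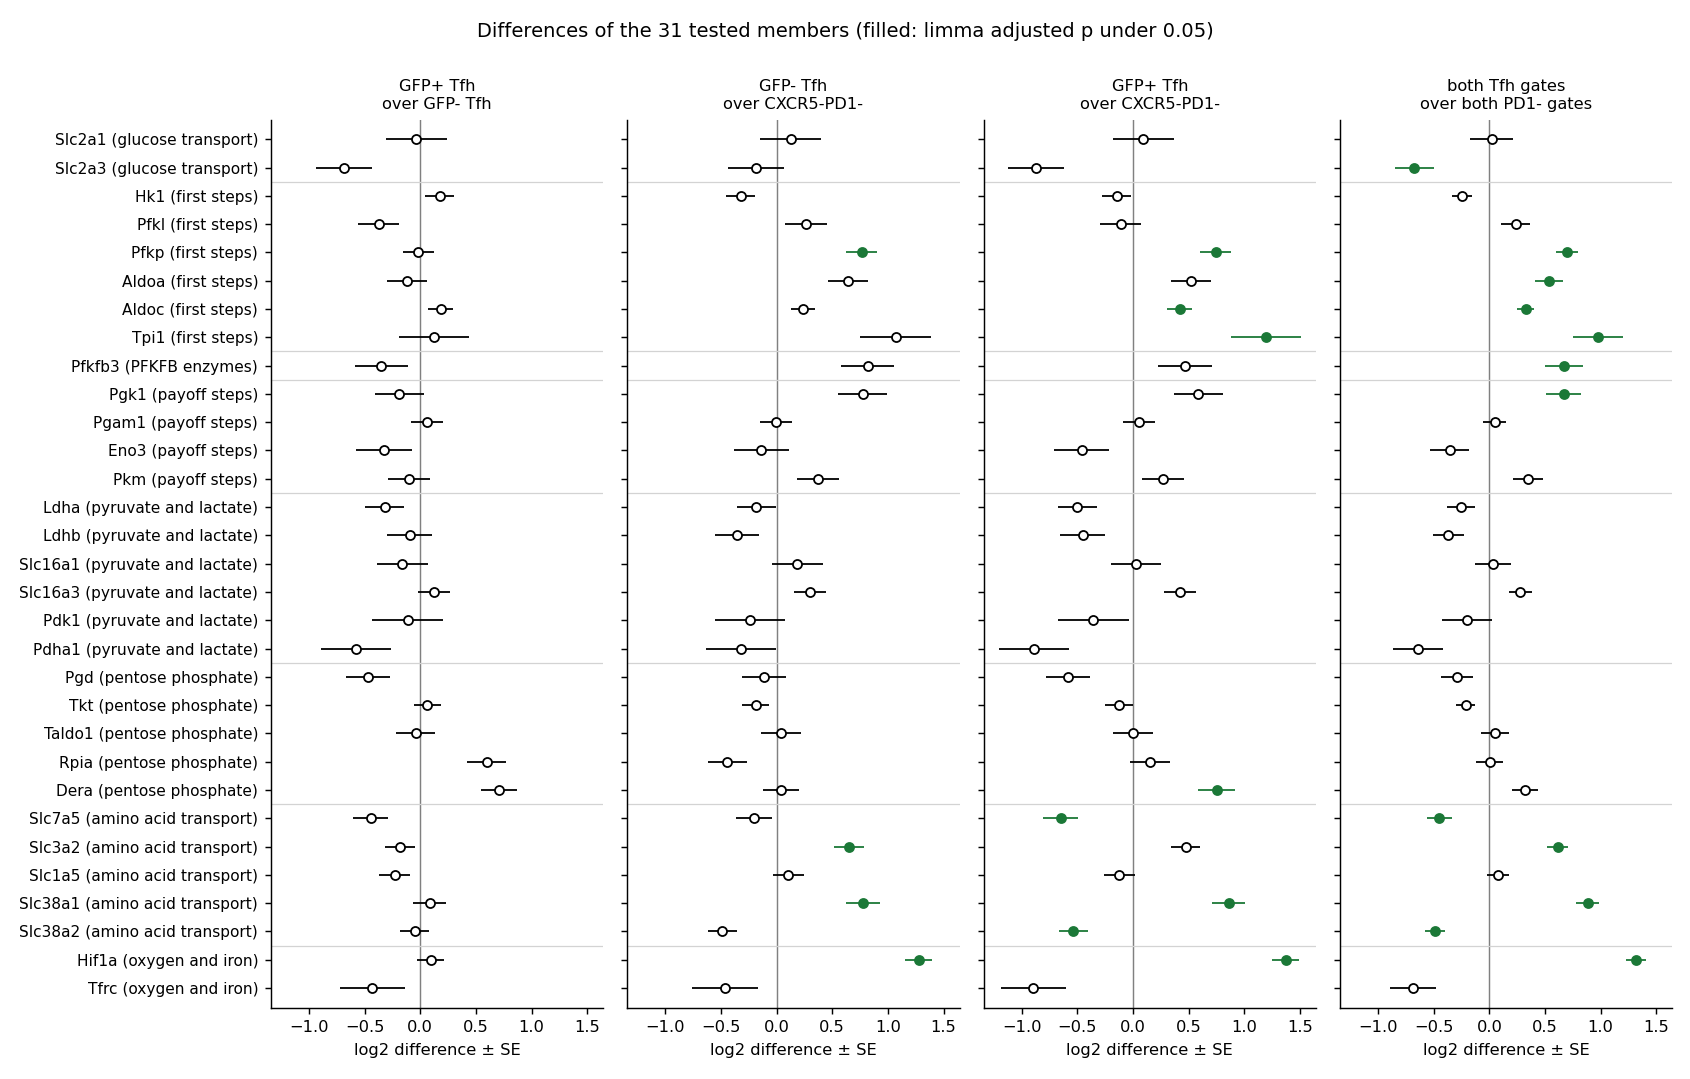
Log2 difference ± SE of each of the 31 tested members in 4 comparisons, by role from glucose transport at the top to oxygen and iron at the bottom, with filled green points for a limma adjusted p under 0.05. Filled points in the rightmost panel (both Tfh groups over both PD1- groups) run from Hif1a at 1.32 to Slc2a3 at -0.67, and the leftmost panel (GFP+ over GFP- Tfh) has none.

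At the pyruvate branch 0 of 6 members passed in any comparison. In both Tfh groups over both PD1- groups 5.05% of all genes tested rose and 5.33% fell. With 6 members the count is too small to read against these shares. Lactate dehydrogenase turns pyruvate into lactate and restores NAD+. Ldha lay between 8.43 and 9.55 and differed by -0.26 ± 0.12, a direction opposite to that of Pgk1 and Tpi1. The lactate exporter gene Slc16a3 differed by 0.28 ± 0.10 (limma adjusted p = 0.115), and the lactate and pyruvate carrier gene Slc16a1 by 0.03 ± 0.16. Pdha1, a subunit gene of pyruvate dehydrogenase, which opens the way into the mitochondrion, had 8.70, 8.32 and 7.14 in GFP+ Tfh, 8.87, 8.36 and 8.65 in GFP- Tfh, 9.26, 8.87 and 8.93 in CXCR5+PD1- cells and 8.81, 9.04 and 8.99 in CXCR5-PD1- cells. GFP+ Tfh replicate 3 was far below the other arrays. The difference of -0.64 ± 0.22 did not pass (limma adjusted p = 0.101), and passed in 4 of 24 repeats, among them those without GFP+ Tfh replicate 1 (-0.80; adjusted p = 0.0225) or replicate 3 (-0.41; adjusted p = 0.048). Pdk1, a kinase gene that inhibits pyruvate dehydrogenase, differed by -0.20 ± 0.22.

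In the pentose phosphate pathway 0 of 5 tested members passed in both Tfh groups over both PD1- groups. The list is too short to read this count against the 5.05% and 5.33% of all genes that rose and fell. Pgd, which encodes the second NADPH-making enzyme, differed by -0.29 ± 0.14, and the transketolase gene Tkt by -0.21 ± 0.09. The transaldolase gene Taldo1 differed by 0.05 ± 0.13 and the ribose phosphate isomerase gene Rpia by 0.00 ± 0.12. Dera encodes deoxyribose-phosphate aldolase, which feeds deoxyribose into glycolysis. It had 7.96, 7.64 and 7.93 in GFP+ Tfh, 6.85, 7.08 and 7.46 in GFP- Tfh, 7.32, 7.15 and 7.26 in CXCR5+PD1- cells and 6.92, 7.09 and 7.26 in CXCR5-PD1- cells. All 3 GFP+ Tfh arrays lay above the 9 others, which overlapped among themselves.

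Of the 5 amino acid transporter genes among the members 2 rose and 2 fell, where 5.05% of all genes rose and 5.33% fell. SLC38A1 and SLC38A2 are sodium-coupled carriers of glutamine and other neutral amino acids. Slc38a1 stood at 9.99, 10.27 and 10.10 in GFP+ Tfh, 9.94, 10.27 and 9.90 in GFP- Tfh, 9.16, 9.29 and 8.95 in CXCR5+PD1- cells and 9.11, 9.21 and 9.45 in CXCR5-PD1- cells. Slc38a2 stood at 11.29, 11.02 and 11.31 in GFP+ Tfh, 11.45, 11.24 and 11.07 in GFP- Tfh, 11.72, 11.78 and 11.60 in CXCR5+PD1- cells and 11.84, 11.70 and 11.69 in CXCR5-PD1- cells. For both genes the Tfh and PD1- arrays did not overlap, with the Tfh arrays above for Slc38a1 and below for Slc38a2. Slc38a1 rose by 0.88 ± 0.11, or 1.84-fold (limma adjusted p = 0.000208), and its second probe set rose by 0.98 ± 0.15 (limma adjusted p = 0.00115). Slc38a2 fell by 0.49 ± 0.09, which is 1.4-fold lower (limma adjusted p = 0.00485).

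Slc3a2 and Slc7a5 encode the heavy and the light chain of the large neutral amino acid transporter. Slc3a2 had 10.34, 10.10 and 10.28 in GFP+ Tfh, 10.32, 10.44 and 10.51 in GFP- Tfh, 9.45, 9.65 and 9.91 in CXCR5+PD1- cells and 9.74, 9.68 and 9.88 in CXCR5-PD1- cells. Slc7a5 had 7.61, 7.25 and 7.36 in GFP+ Tfh, 7.82, 8.00 and 7.74 in GFP- Tfh, 8.06, 8.20 and 8.05 in CXCR5+PD1- cells and 7.93, 7.84 and 8.40 in CXCR5-PD1- cells. The heavy chain gene was higher in every Tfh array than in any PD1- array, while the light chain gene was lowest in the GFP+ Tfh arrays and overlapped between GFP- Tfh and CXCR5-PD1- cells. Slc3a2 rose by 0.61 ± 0.09 (limma adjusted p = 0.00132) and Slc7a5 fell by 0.45 ± 0.11 (limma adjusted p = 0.0232). Without all 3 GFP+ Tfh arrays Slc7a5 differed by -0.23 (limma adjusted p = 0.353), and it also lost the call without GFP+ Tfh replicate 2, GFP- Tfh replicate 1 or 3 or CXCR5+PD1- replicate 2. Slc1a5, the gene of another glutamine carrier, differed by 0.07 ± 0.10.

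Hif1a had the highest difference of all members. Its protein is destroyed by prolyl hydroxylases when oxygen is plentiful, and when it is stable HIF-1 activates many glycolytic genes. Hif1a stood at 11.91, 11.75 and 11.74 in GFP+ Tfh, 11.68, 11.86 and 11.59 in GFP- Tfh, 10.27, 10.57 and 10.49 in CXCR5+PD1- cells and 10.34, 10.47 and 10.47 in CXCR5-PD1- cells. The gap between the lowest Tfh array and the highest PD1- array was wider than the spread within any group. Hif1a rose by 1.32 ± 0.09 (limma adjusted p = 2.76e-06). Tfrc encodes the transferrin receptor, through which cells take up iron, and had 9.69, 8.99 and 8.20 in GFP+ Tfh, 9.63, 9.47 and 9.08 in GFP- Tfh, 9.95, 9.75 and 9.93 in CXCR5+PD1- cells and 10.04, 9.67 and 9.86 in CXCR5-PD1- cells. Replicate 3 was the lowest in both Tfh groups, and Tfrc differed by -0.69 ± 0.21 just outside the threshold (limma adjusted p = 0.0579).

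Of the 31 tested members, all 6 Tfh arrays lay above all 6 PD1- arrays for 5 (Hif1a, Pfkp, Aldoc, Slc38a1 and Slc3a2) and below for 1 (Slc38a2), where 3.49% of all genes tested lay above and 4.07% below. The call held in all repeats run for 7 of the 12 members that passed (Hif1a, Slc38a1, Pfkp, Slc3a2, Tpi1, Pgk1 and Slc38a2) and was lost in at least 1 for Aldoa, Aldoc, Pfkfb3, Slc2a3 and Slc7a5. The count of 12 was 7 without CXCR5+PD1- replicate 2, and 8 with the male replicates 1 and 2 alone. It was 13 with the female replicate set against the males as a block. With all 3 GFP+ Tfh arrays left out it was 9, of which 8 were higher and 1 lower.

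Promoter sequences are shown for 5 members that passed, because HIF-1 is known to bind the letters ACGTG or GCGTG and MYC the letters CACGTG. The 250 bases before a RefSeq start site (assembly GRCm38.p6) were searched on both strands, and 33 of the 38 listed genes had an entry, with 48 starts. Any start on 1 further chromosome, which holds no listed gene, was left out of the counts of members. Capitals mark each ACGTG or GCGTG, written CACGT or CACGC where it lies on the other strand, and CACGTG holds ACGTG on both strands. The Hif1a window is chr12:73907617-73907866 on the + strand, the Pfkp window chr13:6648772-6649021 on the - strand, and the Pgk1 window chrX:106186850-106187099 on the + strand. The Tpi1 window is chr6:124814159-124814408 and the Slc38a2 window chr15:96699729-96699978, both on the - strand, and each is printed 5′ to 3′ on its gene's strand.
Hif1a: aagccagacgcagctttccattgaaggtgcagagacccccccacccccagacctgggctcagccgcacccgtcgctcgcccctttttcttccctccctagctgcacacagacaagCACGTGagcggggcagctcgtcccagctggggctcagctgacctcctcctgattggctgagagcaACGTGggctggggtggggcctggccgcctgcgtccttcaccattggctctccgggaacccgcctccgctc
Pfkp: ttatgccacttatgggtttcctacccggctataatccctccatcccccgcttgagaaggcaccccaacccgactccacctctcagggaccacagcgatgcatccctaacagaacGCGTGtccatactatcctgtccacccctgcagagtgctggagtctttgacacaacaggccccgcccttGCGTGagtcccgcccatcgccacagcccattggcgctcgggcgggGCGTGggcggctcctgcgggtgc
Pgk1: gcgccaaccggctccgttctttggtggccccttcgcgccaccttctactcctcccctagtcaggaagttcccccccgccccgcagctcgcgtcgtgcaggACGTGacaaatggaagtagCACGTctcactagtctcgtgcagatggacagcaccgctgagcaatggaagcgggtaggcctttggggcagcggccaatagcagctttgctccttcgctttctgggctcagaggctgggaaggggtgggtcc
Tpi1: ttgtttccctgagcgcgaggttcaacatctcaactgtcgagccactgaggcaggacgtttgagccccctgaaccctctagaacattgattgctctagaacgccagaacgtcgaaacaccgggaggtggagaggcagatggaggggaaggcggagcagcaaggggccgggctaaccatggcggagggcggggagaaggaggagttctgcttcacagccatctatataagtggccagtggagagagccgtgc
Slc38a2: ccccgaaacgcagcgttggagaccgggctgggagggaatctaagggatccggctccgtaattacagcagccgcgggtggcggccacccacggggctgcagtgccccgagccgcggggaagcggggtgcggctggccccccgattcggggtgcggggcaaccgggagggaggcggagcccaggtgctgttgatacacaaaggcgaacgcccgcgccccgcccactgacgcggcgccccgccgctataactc
Pfkp, Pgk1 and Hif1a show 3, 2 and 3 matches, and the windows of Tpi1 and Slc38a2 hold none. Among members that rose, 7 of 8 with an entry held ACGTG or GCGTG before at least 1 start and 2 of 8 held CACGTG. The same letters stood before at least 1 start of all 17 tested members with an entry that did not pass. Of 32851 promoter windows of the table, 38.6% held ACGTG or GCGTG, 16.6% ACGTG, 28.2% GCGTG and 6.02% CACGTG. A gene with several starts has more chances of a match than 1 window.

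GFP- Tfh were compared with CXCR5-PD1- cells, 3 arrays against 3. Hif1a rose by 1.28 ± 0.12 (limma adjusted p = 0.000171), Pfkp by 0.76 ± 0.14 (limma adjusted p = 0.00933), Slc38a1 by 0.78 ± 0.15 (limma adjusted p = 0.0123) and Slc3a2 by 0.65 ± 0.13 (limma adjusted p = 0.0184). So 4 of 31 tested members (12.9%) rose and 0 fell, where 2.22% of all genes rose and 1.6% fell. The median difference was 0.04 for the tested members and 0.00 for all genes tested. Outside the threshold lay Slc38a2 at -0.49 ± 0.13 (limma adjusted p = 0.0655), Aldoa at 0.64 ± 0.18, Tpi1 at 1.07 ± 0.32, Pgk1 at 0.77 ± 0.22 and Pfkfb3 at 0.82 ± 0.24. The count was 2 without GFP- Tfh replicate 2 or CXCR5-PD1- replicate 1 or 2, which ended the calls of Slc38a1 and Slc3a2, and Slc3a2 lost its call also without GFP- Tfh replicate 3 (limma adjusted p at most 0.08). It was 9 with 1 weight per group and 7 with the female replicate set against the males as a block.

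The CXCR5-PD1- arrays also served as controls for GFP+ Tfh, so this comparison and the one before share them. Hif1a rose by 1.37 ± 0.12 (limma adjusted p = 5.23e-05), Slc38a1 by 0.86 ± 0.15 (limma adjusted p = 0.00525) and Pfkp by 0.74 ± 0.14 (limma adjusted p = 0.008). Dera rose by 0.75 ± 0.16 (limma adjusted p = 0.018), Aldoc by 0.42 ± 0.11 (limma adjusted p = 0.0465) and Tpi1 by 1.19 ± 0.32 (limma adjusted p = 0.0472). Slc7a5 fell by 0.65 ± 0.16 (limma adjusted p = 0.0326) and Slc38a2 by 0.54 ± 0.13 (limma adjusted p = 0.0327). These were 6 higher (19.4%) and 2 lower (6.45%) of 31, where 2.45% of all genes tested rose and 3.75% fell, with a median difference of 0.03 for the tested members and -0.00 for all genes. Slc3a2 differed by 0.47 ± 0.13 just outside the threshold (limma adjusted p = 0.063) and Slc2a3 by -0.87 ± 0.25 (limma adjusted p = 0.0675). With 1 weight per group, which lets the GFP+ arrays have their own spread, 2 members passed, Hif1a and Slc38a1. The count was 4 without GFP+ Tfh replicate 2, 3, 5 and 4 without CXCR5-PD1- replicates 1, 2 and 3, and 11 without GFP+ Tfh replicate 1. Each call but those of Hif1a, Slc38a1 and Pfkp was lost without at least 1 array: Dera without CXCR5-PD1- replicate 1 or 2, Aldoc and Tpi1 without GFP+ Tfh replicate 1 or 2 or any CXCR5-PD1- array. Aldoc also lost its call with the female replicate set against the males as a block (limma adjusted p = 0.05004). Slc38a2 lost its call without GFP+ Tfh replicate 2 or any CXCR5-PD1- array, and Slc7a5 without GFP+ Tfh replicate 2 or 3 or CXCR5-PD1- replicate 1 or 3 (adjusted p at most 0.231 over these 5 members).

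Set side by side, the differences of GFP- Tfh and of GFP+ Tfh over CXCR5-PD1- cells were close for Hif1a (1.28 and 1.37), Pfkp (0.76 and 0.74), Slc38a1 (0.78 and 0.86) and Slc38a2 (-0.49 and -0.54). They were apart for Dera (0.04 and 0.75), Slc2a3 (-0.19 and -0.87), Slc7a5 (-0.20 and -0.65) and Pdha1 (-0.32 and -0.89). Such gaps are set against the spread in the direct comparison of GFP+ and GFP- Tfh, whose precision the number of arrays limits.

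That comparison is the stated aim of the series. Of the 31 tested members, 0 passed in GFP+ over GFP- Tfh, where 0% of all genes rose and 0.0445% fell (limma, 5 genes). At an unadjusted p under 0.05 there were 2 higher and 3 lower members, and 214 higher and 614 lower genes in all. The median difference of the tested members was -0.10 and that of all genes -0.02, with 21 members below 0 and 10 above. Dera had the smallest p, at 0.71 ± 0.16 (limma adjusted p = 0.301), followed by Rpia at 0.60 ± 0.18 (limma adjusted p = 0.431), and both belong to the pentose phosphate list. The GFP+ Tfh arrays of Rpia ran from 6.75 to 7.15, above GFP- Tfh arrays at 6.21 to 6.68. The 3 members lower at an unadjusted limma p under 0.05 were Slc7a5 at -0.45 ± 0.16 (limma adjusted p = 0.559), Slc2a3 at -0.68 ± 0.25 (limma adjusted p = 0.569) and Pgd at -0.47 ± 0.20 (limma adjusted p = 0.65). The GFP+ and GFP- Tfh arrays of Pgd overlapped.

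For the other roles the smallest p belonged to Pfkl (-0.37 ± 0.18), Pfkfb3 (-0.35 ± 0.24), Eno3 (-0.33 ± 0.25), Pdha1 (-0.58 ± 0.31) and Tfrc (-0.43 ± 0.29). Hif1a differed by 0.09 ± 0.12 and Pfkp by -0.02 ± 0.14. For 4 members all GFP+ arrays lay above all GFP- arrays and for 2 they lay below, where 3.09% and 5.65% of all genes did. In 0 of the repeats did a member pass here. GFP+ Tfh replicate 3 was the lowest of the 3 GFP+ arrays for 19 of 31 tested members, against 36.5% of all genes, and the lowest of all 12 arrays for 9, against 22.6% of all genes. The median SD of the tested members was 0.25 in GFP+ Tfh and 0.136 in GFP- Tfh, close to the 0.261 and 0.155 of all genes tested. With these SEs, members such as Tpi1 (0.12 ± 0.32) could differ between the groups by more than their measured values.

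**Figure D3:**
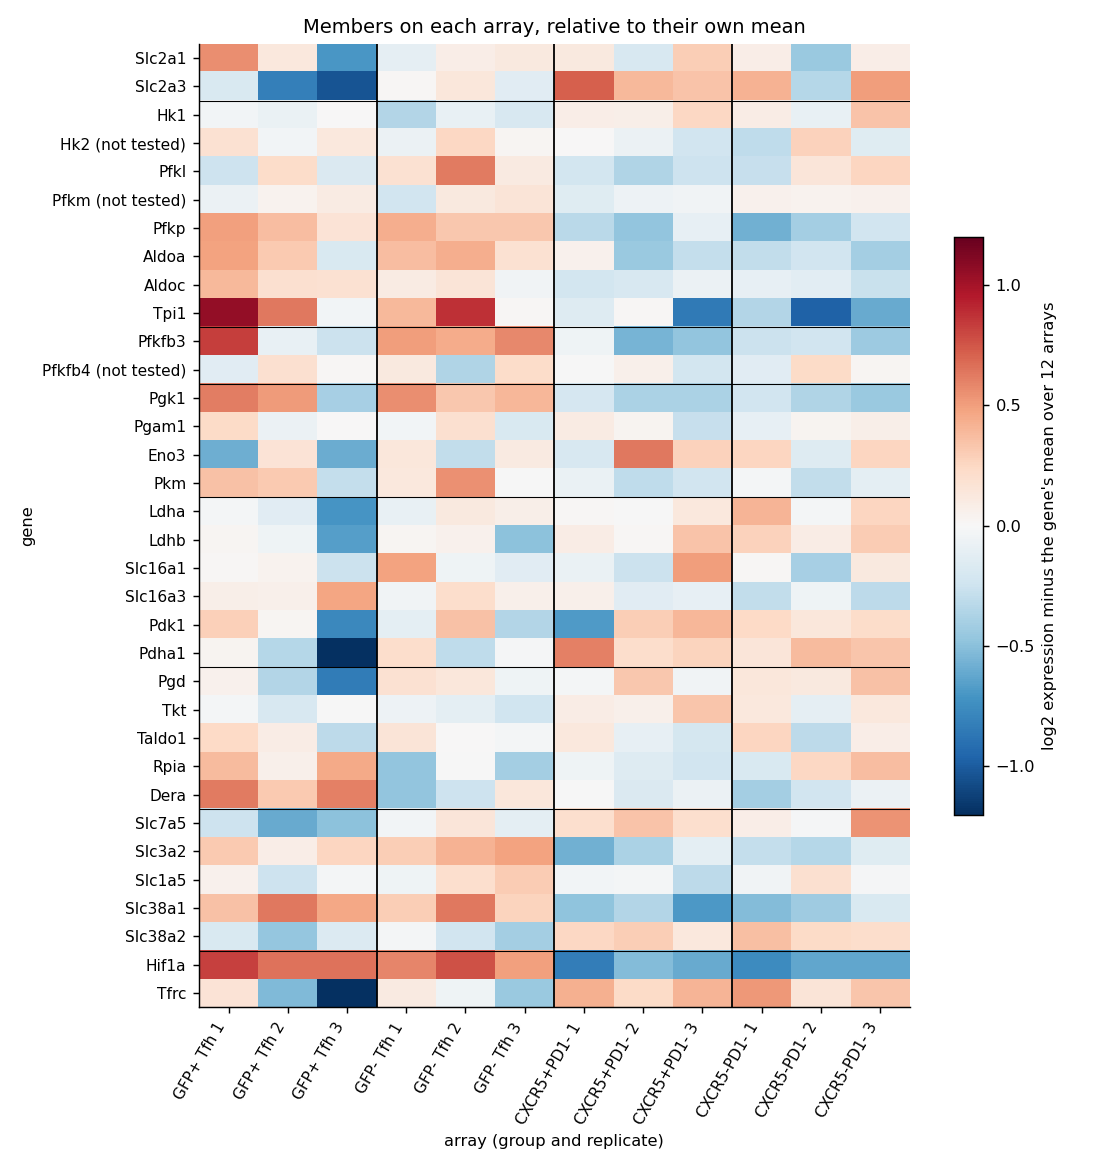
Log2 expression of the 34 members with a probe set on each array, minus the gene's mean over the 12 arrays, with rows by role and columns in the order GFP+ Tfh, GFP- Tfh, CXCR5+PD1- and CXCR5-PD1-, replicates 1 to 3 each; red is above the mean and blue below. Hif1a, Slc38a1 and Pfkp are red on the Tfh arrays and blue on the PD1- arrays, Dera is red on the 3 GFP+ Tfh arrays, and GFP+ Tfh replicate 3 is dark blue for Pdha1, Tfrc and Slc2a3.

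Between CXCR5+PD1- and CXCR5-PD1- cells 0 of 31 members passed, and 0 had an unadjusted p under 0.05 (limma). Of all genes, 0% rose and 0% fell after adjustment, and 72 were higher and 65 lower at an unadjusted p under 0.05. The smallest unadjusted p of a member was 0.113, for Pfkl at -0.32 ± 0.18, and the differences ran up to 0.31 for Tpi1. The median difference was 0.02 for the tested members and 0.01 for all genes. Hif1a differed by 0.02 ± 0.12 and Pfkp by 0.10 ± 0.14.

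Beyond the members, 67 further genes of the same pathways were listed, of which 63 had a probe set and 40 were tested. In both Tfh groups over both PD1- groups 3 rose and 5 fell, where 5.05% of all genes tested rose and 5.33% fell. Adpgk, an ADP-dependent glucokinase gene, fell by 0.71 ± 0.13 (limma adjusted p = 0.005), with 6.82, 7.08 and 6.58 in GFP+ Tfh, 7.28, 6.79 and 7.24 in GFP- Tfh, and 7.40 to 7.97 on the PD1- arrays. Gpd2, the mitochondrial glycerol phosphate dehydrogenase gene, fell by 1.23 ± 0.27 (limma adjusted p = 0.0117) and lost the call without all 3 GFP+ Tfh arrays (-0.84; limma adjusted p = 0.0539) or with the male replicates 1 and 2 alone (-0.72; limma adjusted p = 0.0968). Pfkfb2, a relative of Pfkfb3, fell by 0.65 ± 0.16 (limma adjusted p = 0.0202), the direction opposite to Pfkfb3, and lost the call in 6 repeats, among them those without GFP- Tfh replicate 2 or 3, CXCR5+PD1- replicate 1 or CXCR5-PD1- replicate 3 (adjusted p at most 0.095). Slc36a4, an amino acid transporter gene, rose by 0.67 ± 0.14 (limma adjusted p = 0.00944). The others that passed, named after their values were seen, were Pdk3 (0.82 ± 0.20) and Pgam2 (0.41 ± 0.10) upward and Pdp1 (-0.54 ± 0.15) and Prps1 (-0.46 ± 0.11) downward. Each of these 4 lost the call without several single arrays, in 6 to 15 repeats (adjusted p at most 0.289), and Pdp1 also with the female replicate set against the males as a block (adjusted p = 0.0517). The repeats that ended all 4 calls include the one without all GFP+ Tfh arrays and the one without GFP- Tfh replicate 2. Pdk3 encodes a kinase that inhibits pyruvate dehydrogenase and Pdp1 the phosphatase that reactivates it.

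Of 48 listed regulators of glucose and nutrient use, 47 had a probe set, 43 were tested, 2 rose and 7 fell in the same comparison, where 5.05% of all genes tested rose and 5.33% fell, so the upward share of the regulators was near that of all genes. Txnip, whose protein lowers glucose uptake, stood at 9.10, 8.75 and 9.10 in GFP+ Tfh, 9.40, 9.02 and 9.39 in GFP- Tfh, and 10.50 to 10.96 on the PD1- arrays. It fell by 1.66 ± 0.11, which is 3.16-fold lower (limma adjusted p = 3.64e-06). Egln3, which encodes one of the prolyl hydroxylases that mark HIF-1 alpha and is itself induced by HIF, rose by 1.77 ± 0.19, or 3.42-fold (limma adjusted p = 9.96e-05), with 8.20 to 9.49 in Tfh and 6.79 to 7.33 in PD1- cells. Pik3ip1, an inhibitor gene of PI3 kinase, fell by 1.24 ± 0.14 (limma adjusted p = 0.000146), and the repressor gene Bcl6, a marker of Tfh cells, rose by 1.59 ± 0.11 (limma adjusted p = 3.82e-06). In GFP+ Tfh over CXCR5-PD1- cells Sesn1, which encodes the mTORC1 inhibitor sestrin 1, fell by 1.97 ± 0.31 (limma adjusted p = 0.00252).

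Myc, a transcription factor that drives glycolytic genes, was named after its values were seen. It had 8.92, 6.72 and 6.19 in GFP+ Tfh, 8.60, 8.34 and 8.02 in GFP- Tfh, 9.55, 9.43 and 9.82 in CXCR5+PD1- cells and 9.85, 9.54 and 10.20 in CXCR5-PD1- cells. All Tfh arrays lay below the PD1- arrays, with GFP+ Tfh replicates 2 and 3 lowest, and Myc fell by 1.93 ± 0.37 (limma adjusted p = 0.00545). With the male replicates 1 and 2 alone its adjusted p was 0.0705. In GFP+ over GFP- Tfh it differed by -1.04 ± 0.53 (limma adjusted p = 0.683), and 0 of the 43 regulators passed there.

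**Figure D4:**
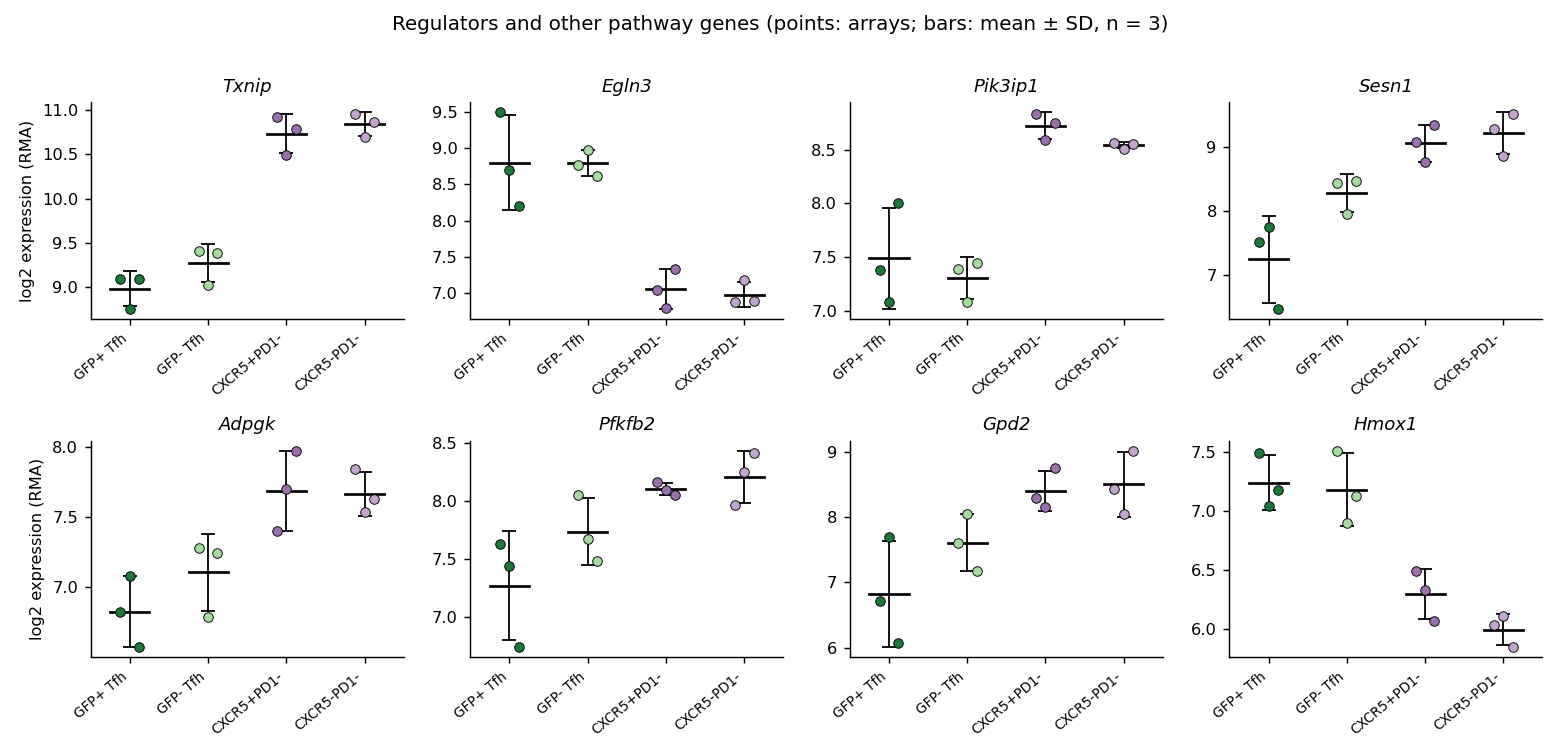
Log2 expression per array of 4 regulators in the upper row (Txnip, Egln3, Pik3ip1 and Sesn1) and 4 pathway or iron genes in the lower row (Adpgk, Pfkfb2, Gpd2 and Hmox1), with groups from left to right GFP+ Tfh, GFP- Tfh, CXCR5+PD1- and CXCR5-PD1-; points are arrays and bars the mean ± SD (n = 3). Txnip lies at 8.75 to 9.40 on the Tfh arrays and 10.50 to 10.96 on the PD1- arrays, and Egln3 and Hmox1 lie higher in the Tfh groups.

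Of 11 listed iron genes, 8 were tested, 1 rose and 1 fell, which is too few to read against the 5.05% and 5.33% of all genes. Hmox1, which encodes the heme oxygenase that frees iron from heme, rose by 1.06 ± 0.13 (limma adjusted p = 0.000216), and Ncoa4, the receptor gene for breakdown of ferritin, fell by 0.59 ± 0.11 (limma adjusted p = 0.00533). With the mean of its probe sets Ncoa4 differed by -0.33 and lost the call (limma adjusted p = 0.191), as it did with replicates 1 and 2 alone (adjusted p = 0.0705).

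Some cell cycle genes rose in the Tfh groups as well. Of 21 listed, 16 were tested, and 5 rose and 0 fell in both Tfh groups over both PD1- groups, beside 5.05% and 5.33% of all genes. The other 11 did not pass, among them Mcm4 at -0.40 ± 0.15, and the median difference of the 16 was 0.25. Mcm6, a subunit gene of the replicative helicase, rose by 1.12 ± 0.17, and Mki67, a proliferation marker, by 1.05 ± 0.27. Among those that rose, Mki67 and Kif11 had PD1- group means of 5.66 to 6.06, below the array medians. They passed the filter on low values only with the help of Tfh arrays. The filter thus favoured their rise, which limits what the count of 5 shows beside the share of all genes. Mki67 lost the call without GFP- Tfh replicate 1 or 2, CXCR5+PD1- replicate 2 or 3 or CXCR5-PD1- replicate 2 or 3 (limma adjusted p at most 0.0678). The median level of the 20 cell cycle genes with a probe set, relative to the array median, was 0.27 to 0.87 in GFP+ Tfh, 0.38 to 0.76 in GFP- Tfh, 0.19 to 0.33 in CXCR5+PD1- cells and 0.26 to 0.46 in CXCR5-PD1- cells. The part of cycling cells in the differences of the members was not tested.

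Markers of other cells were set beside the results in the same way, as the median of each list relative to the array median. The 6 B cell genes lay at -0.22 to 0.04 in GFP+ Tfh, -0.09 to -0.06 in GFP- Tfh, -0.26 to -0.20 in CXCR5+PD1- cells and -0.29 to -0.17 in CXCR5-PD1- cells. Of these genes 3 were tested and 1, Pax5, rose in both Tfh groups over both PD1- groups, by 0.30 ± 0.07 (limma adjusted p = 0.0193). Pax5, a B lineage transcription factor gene, also rose by 0.47 ± 0.10 in GFP+ Tfh over CXCR5-PD1- cells (limma adjusted p = 0.0171). Its group means were 6.22 in CXCR5+PD1- and 6.10 in CXCR5-PD1- cells, below the array medians. Pax5 passed the filter on low values only with the help of Tfh arrays, which favoured its rise in both comparisons. Cd22 and Cd79b were tested without passing in either comparison, and Cd79a, Ms4a1 and Blk did not pass the filter. The 9 myeloid genes lay at -0.60 to -0.43 in GFP+ Tfh, -0.84 to -0.60 in GFP- Tfh, -0.97 to -0.53 in CXCR5+PD1- cells and -0.80 to -0.57 in CXCR5-PD1- cells, and 0 of 4 tested passed in both Tfh groups over both PD1- groups. In GFP+ over GFP- Tfh the myeloid gene Lyz2 differed by 1.38 ± 0.38 (limma adjusted p = 0.416), with all GFP+ arrays above all GFP- arrays. The other tested myeloid genes did not follow it, with Cd68 at 0.14 ± 0.25, Tyrobp at 0.06 ± 0.41 and Fcer1g at -0.12 ± 0.14. The 5 stromal genes lay at 0.93 to 1.34 on all arrays, and 1 of 5 tested, Vim, which T cells also express, fell by 0.92 ± 0.15 in both Tfh groups over both PD1- groups (limma adjusted p = 0.00193) and by 1.11 ± 0.21 in GFP+ Tfh over CXCR5-PD1- cells (limma adjusted p = 0.00921). The 8 genes of germinal centre B and plasma cells lay at -0.25 to 0.23 on all arrays, and 0 of 5 tested passed in both Tfh groups over both PD1- groups. The 8 epithelial genes lay at -1.12 to -0.68 on all arrays, with GFP+ Tfh replicate 3 highest. The 4 regulatory T cell genes lay at 2.61 to 2.73 in GFP+ Tfh, 3.23 to 3.51 in GFP- Tfh, 2.13 to 2.78 in CXCR5+PD1- cells and 2.57 to 3.15 in CXCR5-PD1- cells, and in both Tfh groups over both PD1- groups Ikzf2 and Ctla4 rose and Il2ra and Foxp3 fell. In GFP+ over GFP- Tfh Il2ra, the gene of the IL-2 receptor alpha chain, fell by 2.72 ± 0.28 (limma adjusted p = 0.00451). Foxp3, the regulatory T cell factor, differed there by -0.64 ± 0.18 (limma adjusted p = 0.416), with all GFP+ arrays below all GFP- arrays. The 2 other genes of this list lay slightly above 0 there, Ikzf2 at 0.08 ± 0.24 and Ctla4 at 0.03 ± 0.16, so the list did not move in 1 direction. The 7 genes of CD8, NK and gamma delta T cells lay at -0.33 to -0.20 in GFP+ Tfh, -0.24 to -0.08 in GFP- Tfh, -0.10 to 0.04 in CXCR5+PD1- cells and 0.20 to 0.35 in CXCR5-PD1- cells, and 1 of 5 tested, Cd8b1, fell. Mean Cd8b1 was 6.32 in GFP+ Tfh, 6.17 in GFP- Tfh and 6.42 in CXCR5+PD1- cells, near or below the array medians. It was 6.99 in CXCR5-PD1- cells, whose arrays also lay above all CXCR5+PD1- arrays. These lists are too short to read their counts in both Tfh groups over both PD1- groups against the 5.05% and 5.33% of all genes. The part of such cells in the members' differences was not tested.

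Some members have more than 1 probe set, and those of Hk1 differed. Hk1 encodes hexokinase 1, and its brightest probe set, at 11.48 to 12.17, rests on 1 accession that stands in all 15 probe sets naming Hk1 together with the ribosomal protein gene Rpl17. The neighbours of that probe set in identifier order lie on chromosome 14, while Hk1 lies on chromosome 10. It gave a difference of -0.25 ± 0.09 in both Tfh groups over both PD1- groups (limma adjusted p = 0.128). Its other probe set, with neighbours on chromosome 10 and values of 7.59 to 8.37, gave 0.07 ± 0.13 (limma adjusted p = 0.844). Neither passed. Ldhb, the gene of the heart-type lactate dehydrogenase subunit, differed by -0.37 ± 0.14 without passing, on a probe set with neighbours on chromosome 19 while the gene lies on chromosome 6, and its other probe set lay at 5.50 to 6.55.

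**Figure D5:**
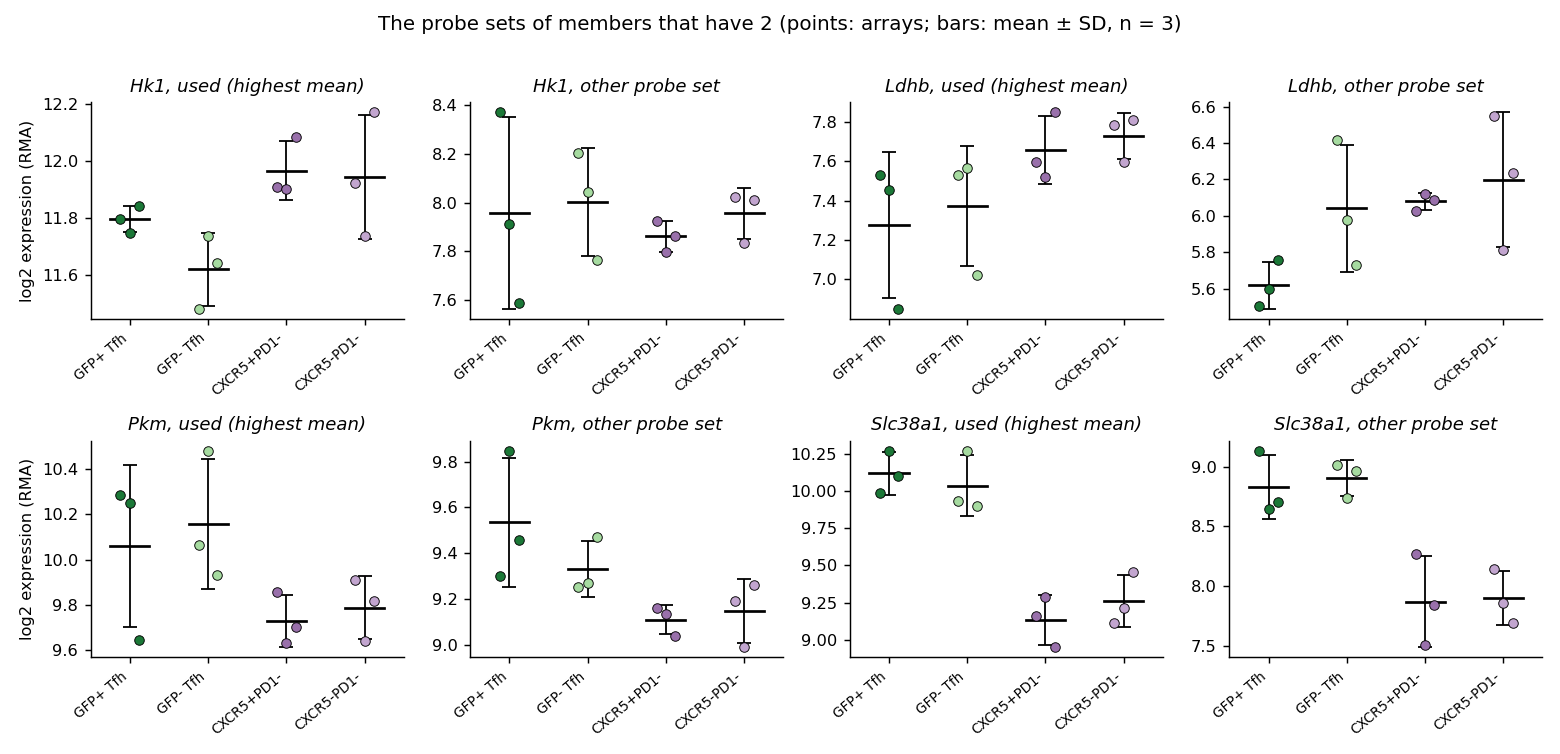
Log2 expression per array of the 2 probe sets of Hk1, Ldhb, Pkm and Slc38a1, with groups from left to right GFP+ Tfh, GFP- Tfh, CXCR5+PD1- and CXCR5-PD1-, each panel on its own scale; points are arrays and bars the mean ± SD (n = 3). Both probe sets of Slc38a1 lie higher on every Tfh array than on any PD1- array, and those of Hk1 do not share a direction.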

How the data were processed

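The members, the gene lists and the tests were chosen with earlier results of these data known. The deposited values are log2 expression of 34760 probe sets on 12 arrays, made by the authors with RMA in oligo, per the submitters' processing notes. RMA gives arrays 1 common distribution, compresses low signals and hides a change that most genes share. All 12 columns carry a sample's title, and 0 were left unmapped. Gene names came from the array platform's annotation and were brought up to date with RefSeq (GRCm38.p6): 21640 had 1 symbol, of which 21553 matched by gene identifier, 1321 had several, and 11799 were unnamed here. The highest mean probe set stood for each of 954 genes with more than 1. A gene was tested if above the array median on at least 3 arrays. Limma 3.58.1 in R 4.3.3 (lmFit, eBayes) fitted 4 group means to all 12 arrays, with 8 residual degrees of freedom, 11.5 after moderation, and Benjamini-Hochberg adjustment at 0.05. The fit was tested on simulated data. The number of arrays limits the precision. Members that passed in a comparison, and per role the one with the smallest p in both Tfh groups over both PD1- groups and in GFP+ over GFP- Tfh, have their values on every array, and of other lists up to 4 genes with the smallest p may be named.

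Same-numbered samples deviated together in CXCR5+PD1- over CXCR5-PD1- (correlations 0.21 to 0.35). In the 4 other comparisons all correlations were positive too, with at least 1 below 0.1 in each. They were 0.25, 0.04 and 0.28 for replicates 1, 2 and 3 in GFP+ over GFP- Tfh. The main fit did not use this pairing, and counts with the replicate number as a block are given below. The highest correlation between 2 arrays was 0.979. Proteins were not analysed here. Alternatives changed the filter, normalisation, weights, moderation, block, probe set rule and arrays; the probe set at the gene's own locus and the fit without GFP+ Tfh arrays were added after seeing the data.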

Additional observations from a re-analysis of the deposited data

How the results depend on the processing

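In GFP+ over GFP- Tfh and in CXCR5+PD1- over CXCR5-PD1- 0 members passed under any alternative. For GFP- Tfh over CXCR5-PD1- the count of 4 members became 9 with 1 weight per group, 9 with 1 weight per array, 7 with the replicate number as a block, 7 with replicate 3 against 1 and 2 as a block, 8 with the 2 groups alone, and 2 to 4 on leaving out single replicates. For GFP+ Tfh over CXCR5-PD1- the count of 8 became 2 with 1 weight per group, 13 with 1 weight per array, 2 with the 2 groups alone, and 3 to 11 on leaving out single replicates. For both Tfh groups over both PD1- groups the count of 12 ran from 7 to 15 on leaving out single replicates and from 8 to 16 under the other alternatives. The cause was not tested. The replicate block gave 8 in GFP+ Tfh over CXCR5-PD1-, of which 7 are among the 8 reported, since Aldoc lost its call (limma adjusted p = 0.0613). It gave 13 in both Tfh groups over both PD1- groups, the 12 reported among them, ended the call of Pdp1 there (limma adjusted p = 0.06), and changed no count in the 2 comparisons at 0. Of 24 calls of a member in a comparison, 11 held under all alternatives and 0 changed direction. Dera, not called in both Tfh groups over both PD1- groups (0.32), differed by -0.034 there without the GFP+ Tfh arrays. Counts with the own-locus probe set equalled those reported. Values near or below the array median, such as those of Hk2, Pfkm and Pfkfb4, limit what these arrays can show.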
